A study of Mus musculus with 12 samples.

Results

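The IFIT genes (interferon-induced proteins with tetratricopeptide repeats) were examined in dendritic cells (DCs) of the mouse. The members were the 6 rows of the count table named *Ifit1*, *Ifit1bl1*, *Ifit1bl2*, *Ifit2*, *Ifit3* and *Ifit3b*, of 55471 genes in all, and each of the 6 was among the 18228 genes tested. The DCs were grown with GM-CSF from bone marrow of female C57BL/6 mice, and all carried the LMP retroviral vector with a human CD8 reporter, on which transduced cells were sorted. In shControl cells the vector carried a hairpin RNA that targets firefly luciferase. In sh*Ppargc1b* cells it targeted *Ppargc1b*, which encodes PGC-1β, a co-activator of genes for mitochondrial metabolism. Cells were left unstimulated or were treated with IFN-β for 6 h, which gave 4 groups of 3 libraries: unstimulated shControl, IFN-β-treated shControl, unstimulated sh*Ppargc1b* and IFN-β-treated sh*Ppargc1b*. The comparisons address how IFN-β changes the IFIT genes and whether less PGC-1β changes that response.

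IFIT proteins are antiviral proteins of the cytoplasm that bind RNA through stacks of tetratricopeptide repeats. IFIT1 recognises viral RNA whose cap lacks the methylation found on host mRNA and blocks its translation, IFIT3 stabilises and partners IFIT1 in human cells, and IFIT2 binds other RNAs and has been tied to cell death. Their genes are switched on when type I interferon binds its receptor, the kinases JAK1 and TYK2 are activated, and the transcription factor complex ISGF3 binds interferon-stimulated response elements (ISREs) in promoters. The genes are therefore near silent in resting cells and are a common readout of interferon signalling. *Ifit3b* is a close copy of *Ifit3*, and *Ifit1bl1* and *Ifit1bl2* are relatives of *Ifit1* whose products are less studied.

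The 6 genes lay side by side on chromosome 19 (GRCm38, 34550694 to 34650009, a span of 99.32 kb) with 0 other protein-coding genes between them. In the order of the plus strand they were *Ifit2* (ENSMUSG00000045932, 34550694 to 34576419, plus strand), *Ifit3* (ENSMUSG00000074896, 34583531 to 34588731, plus), *Ifit1bl1* (ENSMUSG00000079339, 34592891 to 34601956, minus), *Ifit3b* (ENSMUSG00000062488, 34607970 to 34613401, plus), *Ifit1bl2* (ENSMUSG00000067297, 34617049 to 34640743, minus) and *Ifit1* (ENSMUSG00000034459, 34640871 to 34650009, plus). Their gene structure was shared: 97.71% to 99.65% of the coding sequence lay in the last exon. The first coding exon held 5 coding bases in *Ifit1*, *Ifit2*, *Ifit3* and *Ifit3b*, and 32 in *Ifit1bl1* and *Ifit1bl2*.

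To show what the promoters of this cluster have in common, windows from 250 bases before to 50 after the RefSeq transcription start (GRCm38.p6) were searched on both strands for the ISRE core (TTTC, then any 2 bases, then TTTC) and for the gamma-activated site TTCNNNGAA, a motif known from the response to IFN-γ. A match is a description of the sequence only, and no member window held both motifs. The table held 9 windows for the 6 members. In 5 of the 6 members at least 1 window had the ISRE core, against 3.99% of all 27025 gene symbols, and 6 of the 9 windows had it, against 3.44% of all 32851 windows. *Ifit1*, *Ifit3* and *Ifit3b* each had 2 cores in a single window, against 0.225% of all windows with 2 or more. The windows of these members, of *Ifit1bl1* (the first of its 2 windows) and of *Ifit2* (the first of 2) are written 5′ to 3′ along the gene, with the ISRE core in capitals.
*Ifit1*, chr19:34640639-34640938, plus strand: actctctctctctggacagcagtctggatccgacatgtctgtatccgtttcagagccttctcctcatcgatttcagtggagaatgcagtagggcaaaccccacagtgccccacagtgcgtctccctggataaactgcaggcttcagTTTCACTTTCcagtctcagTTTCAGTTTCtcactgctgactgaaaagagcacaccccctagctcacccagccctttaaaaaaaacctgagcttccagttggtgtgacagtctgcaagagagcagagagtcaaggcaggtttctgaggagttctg
*Ifit3*, chr19:34583279-34583578, plus strand: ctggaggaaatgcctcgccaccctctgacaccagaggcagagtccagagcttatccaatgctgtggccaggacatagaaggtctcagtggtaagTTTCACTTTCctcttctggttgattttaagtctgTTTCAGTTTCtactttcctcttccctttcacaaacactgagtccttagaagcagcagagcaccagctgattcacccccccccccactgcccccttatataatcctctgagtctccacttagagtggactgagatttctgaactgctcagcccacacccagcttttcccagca
*Ifit3b*, chr19:34607707-34608006, plus strand: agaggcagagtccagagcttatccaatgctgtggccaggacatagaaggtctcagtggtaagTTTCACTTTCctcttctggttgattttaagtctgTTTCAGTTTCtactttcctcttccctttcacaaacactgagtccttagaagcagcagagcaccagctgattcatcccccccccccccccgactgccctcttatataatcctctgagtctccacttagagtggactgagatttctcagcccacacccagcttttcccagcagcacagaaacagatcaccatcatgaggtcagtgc
*Ifit1bl1*, chr19:34601919-34602218, minus strand: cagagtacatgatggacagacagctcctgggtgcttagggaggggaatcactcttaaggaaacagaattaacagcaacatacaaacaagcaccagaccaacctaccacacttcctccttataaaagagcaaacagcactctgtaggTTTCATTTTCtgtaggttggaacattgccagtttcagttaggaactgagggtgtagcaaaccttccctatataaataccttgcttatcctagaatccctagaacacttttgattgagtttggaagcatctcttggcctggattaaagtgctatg
*Ifit2*, chr19:34550444-34550743, plus strand: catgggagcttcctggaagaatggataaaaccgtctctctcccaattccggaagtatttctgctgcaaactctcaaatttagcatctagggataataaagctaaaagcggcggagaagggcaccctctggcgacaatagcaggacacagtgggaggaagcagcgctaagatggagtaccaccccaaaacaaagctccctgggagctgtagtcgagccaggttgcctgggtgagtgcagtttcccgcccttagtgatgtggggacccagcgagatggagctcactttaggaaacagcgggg

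Counted from the transcription start, the cores began at positions -104 and -85 of *Ifit1*, -156 and -122 of *Ifit3*, and -188 and -154 of *Ifit3b*. The pair had the same letters in the same order in all 3 of these genes. The *Ifit1bl1* window held 1 core, at position -104, and its other window held 1 core as well. A window of *Ifit1bl2* shared 245 bases with the *Ifit1* window on the opposite strand and therefore held the same 2 cores. *Ifit2* had no ISRE core letters in either of its windows, and its first window had the gamma-activated site letters at position -241, a motif found in 8.30% of all windows.

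Near-identical copies limit how these genes can be counted, because read pairs that mapped to more than 1 place were not counted. The coding sequences of *Ifit3* and *Ifit3b* were identical at 1198 of 1209 bases (99.09%), and those of *Ifit1bl1* and *Ifit1bl2* at 88.2% of aligned bases. *Ifit1* was 78.07% and 78.13% identical to these 2 genes, and the other pairs were 61.97% to 67.01% identical. Of the stretches of 100 bases, the read length, along the exons of *Ifit3*, 521 of 1646 (31.65%) were also found in *Ifit3b*, and these were 27.41% of the stretches of *Ifit3b*. *Ifit1* shared 84 stretches (3.285%) with *Ifit1bl2*, *Ifit1bl1* shared 11 (0.51%) with *Ifit1bl2*, and *Ifit2* shared 0. Over 350 bases, within the range of the fragment lengths, 0 stretches of any member were shared, so a read pair with its mate outside the shared sequence could still be placed. *Ifit3* and *Ifit3b* can therefore be undercounted, and the split of reads between them is uncertain.

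The 12 libraries held 49.9 to 77.7 M counts. Levels are given as CPM, counts relative to the size of the library after TMM (trimmed mean of M-values) scaling, with the standard deviation (SD) over 3 libraries. The DC markers *Itgax* (873 to 1244 CPM), *Cd74* (1865 to 2750 CPM) and *H2-Ab1* (550 to 773 CPM) were high in every library. Others were lower, with *Zbtb46* at 17.3 to 32.7 CPM and *Flt3* at 1.33 to 3.58 CPM. Of the list of 8 DC markers from which these come, 5 were higher in sh*Ppargc1b* than in shControl cells in both treatments and 0 lower, where 12.4% of tested genes were called higher without and 11.5% with IFN-β: *Ccr7* (1.32 without and 1.36 with IFN-β), *Cd86* (0.90 and 0.33), *Zbtb46* (0.61 and 0.65), *Flt3* (0.57 and 0.81) and *Itgax* (0.26 and 0.20). This list summed to 4214 to 4841 CPM in unstimulated and 3934 to 4688 CPM in IFN-β-treated shControl, and to 4790 to 5381 and 4664 to 5299 CPM in sh*Ppargc1b* cells. The summed level of 8 macrophage markers was 954 to 1131 CPM in unstimulated and 1461 to 1626 CPM in IFN-β-treated shControl, and 882 to 982 and 1184 to 1421 CPM in sh*Ppargc1b* cells. Of these 8 markers, 2 were lower in the knockdown without and 4 with IFN-β, and 0 were higher, where 11.1% and 12.7% of tested genes were called lower. A list of 6 neutrophil markers summed to 36.7 to 70.7, 26.8 to 61.5, 73.8 to 125 and 57.6 to 104 CPM in the same order, and 6 lymphocyte markers to at most 0.891 CPM. For 5 markers of plasmacytoid DCs the sums were 128 to 154, 346 to 371, 196 to 222 and 379 to 387 CPM. Of the 3 of these that were tested, 2 were higher in the knockdown without and 0 with IFN-β (12.4% and 11.5% of tested genes), and 0 were lower. The part of these markers in the results was not tested, and in bulk RNA more cells of a type and more RNA per cell cannot be told apart. *Ppargc1b* was at 56.3% of shControl without and 67.2% with IFN-β, so the knockdown was partial. With IFN-β, *Ppargc1b* itself was lower in shControl cells (log2 fold change -0.31, adjusted p = 0.0210 in edgeR). In sh*Ppargc1b* cells its change was -0.06 (adjusted p = 0.705), so the 2 percentages have different control levels. The labels do not say that the libraries of a group came from separate cultures, and p-values then measure only the spread between these libraries.

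In unstimulated shControl cells the IFIT genes were expressed at a low level. *Ifit1* had 28.4, 37.1 and 21.5 CPM in the 3 libraries, and *Ifit2* had 30.0, 38.8 and 23.2 CPM. *Ifit3* had 7.52, 12.1 and 7.36 CPM. The copies and relatives were lower still: *Ifit1bl1* had 3.36, 4.90 and 3.39 CPM, *Ifit3b* had 0.822, 1.72 and 0.922 CPM (47 to 105 counts), and *Ifit1bl2* had 0.752, 0.852 and 0.603 CPM (34 to 52 counts). Replicate 2, numbered here by the order of the samples, was the highest of the 3 for every member. All 6 members together took 0.00807% ± 0.00210 of the counts of these libraries.

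With IFN-β the levels of all members were far higher. In shControl, *Ifit2* had 2087, 2374 and 2190 CPM. *Ifit1* had 1038, 1175 and 1108 CPM. *Ifit1bl1* had 1004, 1075 and 1119 CPM, close to *Ifit1*, whereas without IFN-β it had 11.8% to 15.7% of the counts of *Ifit1*. *Ifit3* had 516, 593 and 534 CPM, *Ifit3b* had 108, 119 and 113 CPM, and *Ifit1bl2* had 8.06, 7.96 and 9.12 CPM. The libraries of the 2 treatments were apart for 6 of 6 members, against 56.7% of all tested genes. The family took 0.465% ± 0.0233 of all counts, and the spread between libraries was small, with a coefficient of variation of 1.9% to 9.5% over both IFN-β-treated groups against 9.2% to 42.6% in the unstimulated groups.

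**Figure D1:**
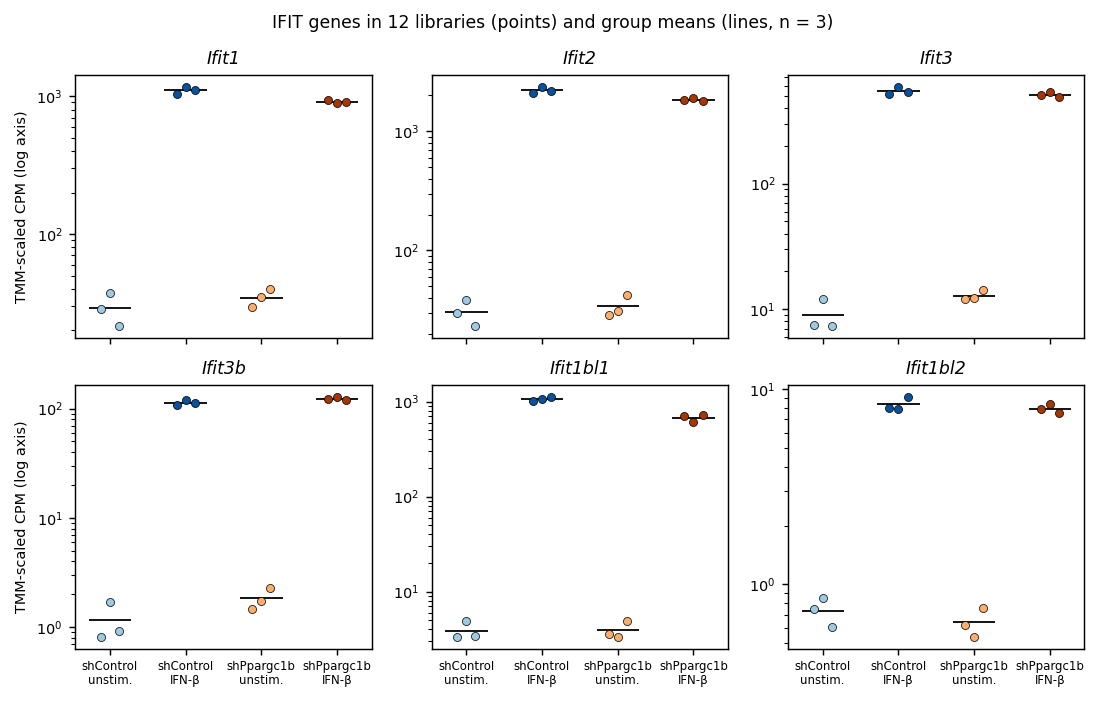
Level of each IFIT gene in the 12 libraries, in TMM-scaled CPM on a log axis that differs between panels. Points are libraries and lines are means of 3; with IFN-β every library lay above every unstimulated one, and *Ifit1bl1* stood at 604.9 to 720.0 CPM in sh*Ppargc1b* against 1004 to 1119 CPM in shControl cells.

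All 6 members rose with IFN-β in shControl cells, where 23.7% of all tested genes were called higher and 24.6% lower (edgeR quasi-likelihood test, Benjamini-Hochberg adjusted p under 0.05 over all genes). The rise was largest in *Ifit1bl1*, by 8.09 ± 0.15 on the log2 scale (standard error, SE), or 273-fold, which was rank 3 of 18228 genes (adjusted p = 2.0e-15). It was followed by *Ifit3b* at 6.60 ± 0.15 (97.2-fold), *Ifit2* at 6.17 ± 0.18 (72.1-fold), *Ifit3* at 5.92 ± 0.15 (60.7-fold) and *Ifit1* at 5.25 ± 0.16 (38.1-fold). *Ifit1bl2* rose least, by 3.50 ± 0.14 or 11.3-fold (adjusted p = 9.9e-12, the highest of the 6). The median log2 fold change was 6.05 over the members and -0.03 over all tested genes.

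In sh*Ppargc1b* cells the 6 members also rose, where 21.4% of tested genes were called higher and 21.2% lower. *Ifit1bl1* again rose most, by 7.42 ± 0.14 or 171-fold, rank 1 of all tested genes (adjusted p = 4.5e-15). *Ifit3b* rose by 6.05 ± 0.14, *Ifit2* by 5.74 ± 0.17, *Ifit3* by 5.31 ± 0.14, *Ifit1* by 4.71 ± 0.15 and *Ifit1bl2* by 3.62 ± 0.14. The treatments were again apart for 6 of 6 members, against 50.1% of all tested genes. The order of the 6 genes by fold was the same as in shControl. Each of these 12 rises kept its call under all 19 alternative settings. The family took 0.379% ± 0.00609 of all counts in these cells.

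Levels of different genes can be compared only per length, here as CPM per kb of exon. In unstimulated shControl cells *Ifit1* was at 10.9 ± 2.94 CPM per kb, *Ifit2* at 7.82 ± 1.99 and *Ifit3* at 5.15 ± 1.53, and the libraries of neighbours in this order overlapped. *Ifit1bl1* (1.72 ± 0.390), *Ifit3b* (0.577 ± 0.246) and *Ifit1bl2* (0.219 ± 0.0372) followed, each with libraries apart from the next. With IFN-β the order in shControl was *Ifit2* (565 ± 37.1 CPM per kb), *Ifit1bl1* (472 ± 25.5), *Ifit1* (417 ± 25.7), *Ifit3* (314 ± 22.9), *Ifit3b* (56.8 ± 2.82) and *Ifit1bl2* (2.49 ± 0.191), and no neighbours overlapped. In IFN-β-treated sh*Ppargc1b* cells it was *Ifit2* (465.5 ± 13.7 CPM per kb), *Ifit1* (343 ± 6.58), *Ifit1bl1* (301 ± 28.7) and *Ifit3* (292 ± 12.8), of which the last 2 overlapped. Counting only exon stretches found in 1 gene raised *Ifit3* by 55.1%, to 487 CPM per kb in IFN-β-treated shControl, which placed it above *Ifit1* but within the spread of *Ifit1bl1* and *Ifit1*. In IFN-β-treated sh*Ppargc1b* cells it placed *Ifit3* (453 CPM per kb) at rank 2, overlapping with *Ifit2* (466) and apart from *Ifit1* (368) and *Ifit1bl1* (317), so the order of *Ifit3* among these genes depends on the length used.

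The make-up of the family therefore differed between treatments. Of the summed CPM per kb, *Ifit1* held 41.3% ± 1.72 in unstimulated and 22.8% ± 0.145 in IFN-β-treated shControl cells. *Ifit1bl1* held 6.57% ± 0.701 without and 25.8% ± 1.13 with IFN-β. *Ifit2* held 29.6% ± 1.06 and 30.9% ± 0.520. In sh*Ppargc1b* cells the share of *Ifit1bl1* was 5.45% ± 0.496 without and 20.5% ± 1.90 with IFN-β, and that of *Ifit3* was 23.1% ± 1.57 and 19.9% ± 0.904.

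**Figure D2:**
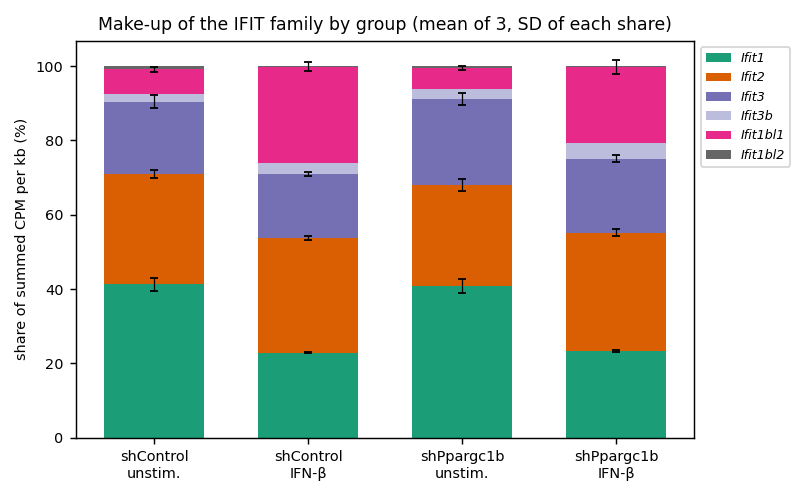
Share of each IFIT gene in the summed CPM per kb of exon of the family, by group. Bars stack the means of 3 libraries and error bars are the SD of the share below them (for the 4 largest members); *Ifit1* held 41.3% of unstimulated and 22.8% of IFN-β-treated shControl cells, and *Ifit1bl1* 6.57% and 25.8%.

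Knockdown of *Ppargc1b* was then examined without IFN-β. *Ifit3* had 12.1, 12.2 and 14.2 CPM in sh*Ppargc1b* cells, against 7.52, 12.1 and 7.36 CPM in shControl, and 1 shControl library lay within the range of the knockdown. *Ifit3b* had 1.48, 1.74 and 2.28 CPM against 0.822, 1.72 and 0.922 CPM, again with 1 shControl library inside the range. *Ifit3* was higher by 0.51 ± 0.14 (adjusted p = 0.0149) and *Ifit3b* by 0.67 ± 0.21 (adjusted p = 0.0301), so 2 of 6 members were called higher and 0 lower, against 12.4% and 11.1% of all tested genes. These 2 are the near-identical copies and are not separate observations. Their summed counts were higher by 0.54 ± 0.15 (adjusted p = 0.0141 in edgeR). The call for *Ifit3* was lost without any 1 of 3 libraries, namely replicates 1 and 3 of unstimulated shControl and replicate 3 of unstimulated sh*Ppargc1b* (adjusted p up to 0.0777). That of *Ifit3b* was lost without each of these libraries, without replicate 2 of unstimulated sh*Ppargc1b*, with limma-voom and in a fit of these 2 groups alone (adjusted p up to 0.158).

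The other 4 members did not pass, although without replicate 2 of unstimulated shControl 3 members passed, *Ifit1* included. *Ifit1* had 29.5, 34.9 and 39.7 CPM in unstimulated sh*Ppargc1b* cells, a log2 difference from shControl of 0.26 with a 95% interval of -0.04 to 0.56 (adjusted p = 0.216). *Ifit2* had 28.9, 30.9 and 42.6 CPM, a difference of 0.15 (-0.17 to 0.48). *Ifit1bl1* had 3.56, 3.36 and 4.92 CPM, a difference of 0.03 (-0.32 to 0.37), and *Ifit1bl2* had 0.623, 0.541 and 0.759 CPM, a difference of -0.20 (-0.57 to 0.18). For 0 of 6 members were the libraries of the 2 groups apart, against 36.8% of all tested genes.

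With IFN-β, *Ifit1bl1* was lower in sh*Ppargc1b* cells. It had 714, 605 and 720 CPM, against 1004, 1075 and 1119 CPM in shControl, with no overlap. The log2 fold change was -0.65 ± 0.10 with a 95% interval of -0.87 to -0.43, or 0.638 of shControl (adjusted p = 2.5e-04). This call held under the 19 alternative settings of the fit, with adjusted p-values up to 0.00226, but the change is below the further fold limit of 1 on the log2 scale. Thus 1 of 6 members was called lower and 0 higher, where 12.7% and 11.5% of all tested genes were.

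*Ifit1* and *Ifit2* did not pass. *Ifit1* had 930, 898 and 903 CPM in IFN-β-treated sh*Ppargc1b* cells, all below the shControl libraries, a difference of -0.28 (-0.56 to -0.01, adjusted p = 0.134). *Ifit2* had 1822, 1885 and 1778 CPM, also all below, a difference of -0.28 (-0.58 to 0.02, adjusted p = 0.172). Both passed, in the lower direction, with limma-voom, with all genes that had at least 1 count and in a fit of these 2 groups alone. *Ifit3* had 507, 533 and 488.5 CPM, a difference of -0.11 (-0.34 to 0.13), and *Ifit1bl2* had 7.90, 8.43 and 7.51 CPM, a difference of -0.08 (-0.32 to 0.16). *Ifit3b* had 121, 127 and 121 CPM, all above the shControl libraries, a difference of 0.12 (-0.10 to 0.33, adjusted p = 0.448), and it passed in the higher direction in the fit of these 2 groups alone (adjusted p = 0.0461). The libraries were apart for 4 of 6 members, against 38.7% of all tested genes.

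The interaction compares the size of the IFN-β response between the 2 kinds of cell. For 0 of 6 members did it pass the threshold in edgeR, DESeq2 or limma-voom, where 0.73% of all tested genes passed in edgeR. The interaction was -0.68 ± 0.19 for *Ifit1bl1* (adjusted p = 0.132), -0.61 ± 0.18 for *Ifit3* (0.152), -0.56 ± 0.23 for *Ifit3b* (0.407), -0.54 ± 0.19 for *Ifit1* (0.272), -0.43 ± 0.21 for *Ifit2* (0.487) and 0.12 ± 0.21 for *Ifit1bl2* (0.915). The unadjusted p was under 0.05 for 4 of 6 members, against 10.5% of all tested genes. Without shControl unstimulated replicate 2, the library in which all members were high, 4 members passed (*Ifit1*, *Ifit1bl1*, *Ifit3* and *Ifit3b*).

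**Figure D3:**
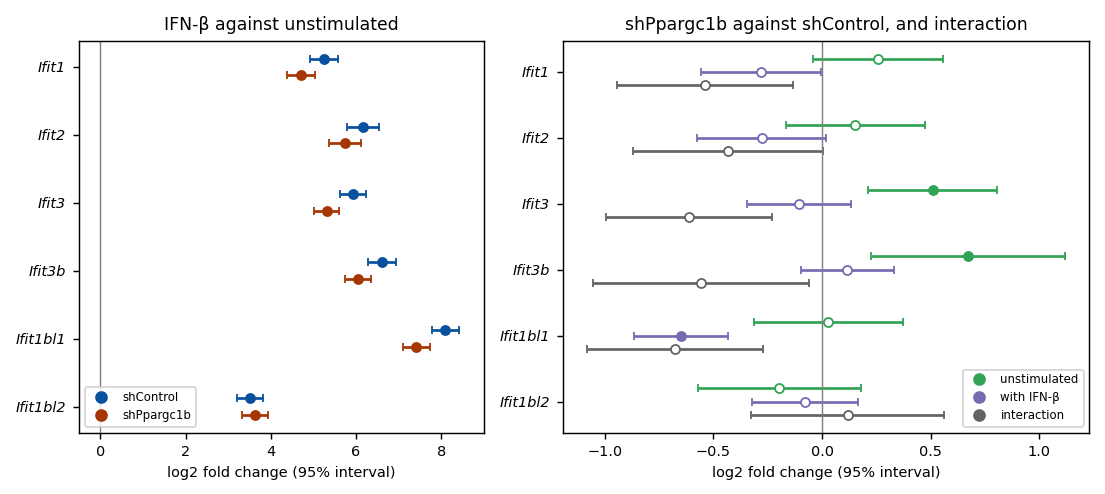
Log2 fold changes of the 6 IFIT genes with 95% intervals from the edgeR fit, for IFN-β (left) and for sh*Ppargc1b* against shControl and the interaction (right). Filled points passed an adjusted p of 0.05 and open points did not; on the right these were *Ifit3* (0.51) and *Ifit3b* (0.67) without and *Ifit1bl1* (-0.65) with IFN-β.

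Because the members sit in the same library, the ratio of 2 members' counts does not depend on the scaling of library sizes. Each of the 15 pairs was compared over all 12 libraries by an exact two-sided permutation test within strata, which allows no p below 0.005, with adjustment over the 15 pairs. IFN-β changed the ratio in 15 of 15 pairs (exact p = 0.005, the smallest possible, adjusted p = 0.005 for each). The ratio of *Ifit1bl1* to *Ifit1bl2*, which are 88.2% identical in coding sequence, rose by 4.20 on the log2 scale, the largest of the 15. That of *Ifit2* to *Ifit1* rose by 0.98, and that of *Ifit3b* to *Ifit3* by 0.75. *Ifit3b* had 10.9%, 14.2% and 12.5% of the counts of *Ifit3* in unstimulated and 20.9%, 20.1% and 21.2% in IFN-β-treated shControl libraries, with no overlap.

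The same test between sh*Ppargc1b* and shControl, within treatments, found a difference in 9 of 15 pairs, each of which held *Ifit3*, *Ifit3b* or *Ifit1bl1*. The ratio of *Ifit3* to *Ifit1* was higher in sh*Ppargc1b* cells by 0.22, with 0.27 without and 0.18 with IFN-β (exact permutation p = 0.005, adjusted p = 0.0107), and the groups were apart in both treatments. That of *Ifit3b* to *Ifit1* was higher by 0.42 (0.44 and 0.40, adjusted p = 0.0107, exact permutation test). The ratio of *Ifit1bl1* to *Ifit1* had a log2 difference of -0.31 (-0.26 in unstimulated and -0.37 in treated cells), with an exact permutation p of 0.015 and an adjusted p of 0.0281, and it overlapped between groups without IFN-β. The widest difference was that of *Ifit1bl1* to *Ifit3b*, at -0.73. By contrast, the ratio of *Ifit2* to *Ifit1* differed by -0.06 (exact permutation p = 0.245, adjusted p = 0.306). It was 2.01, 2.02 and 1.98 in IFN-β-treated shControl and 1.96, 2.10 and 1.97 in IFN-β-treated sh*Ppargc1b* libraries. The ratio of the near-copies *Ifit3b* and *Ifit3* differed by 0.20 (exact permutation p = 0.04, adjusted p = 0.06).

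**Figure D4:**
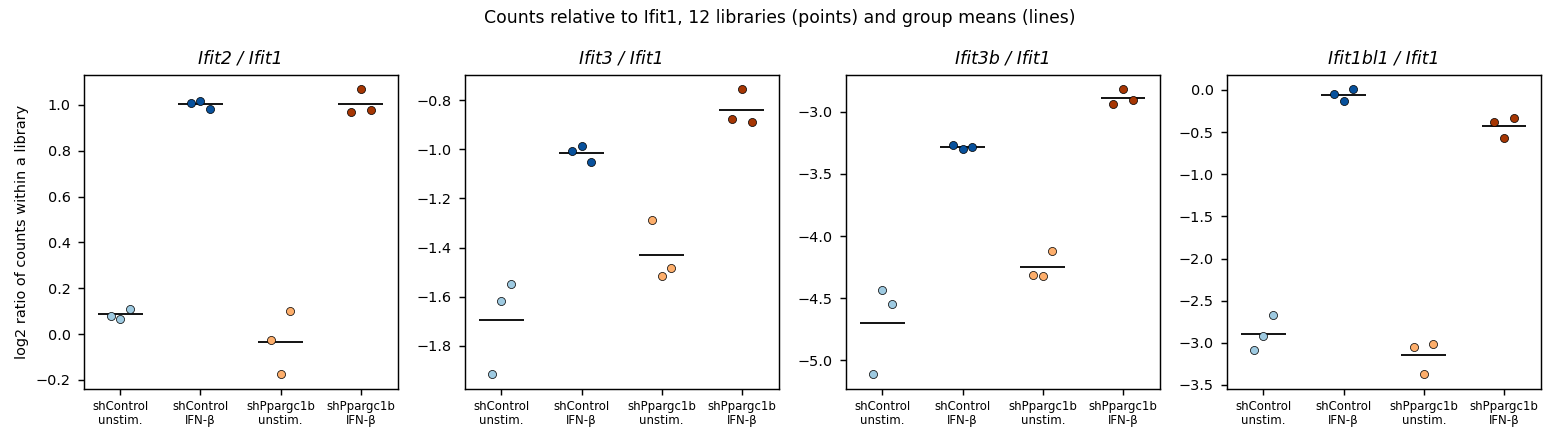
Log2 ratio of the counts of *Ifit2*, *Ifit3*, *Ifit3b* and *Ifit1bl1* to those of *Ifit1* within each library, by group (points, with the mean of 3 as a line; the vertical axes differ). The ratio of *Ifit3* and of *Ifit3b* lay higher and that of *Ifit1bl1* lower in sh*Ppargc1b* than in shControl cells (0.22, 0.42 and -0.31), while that of *Ifit2* differed by -0.06.

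The 5 nearest protein-coding genes on either side of the cluster were examined to see how far the response reached. *Ch25h*, which encodes cholesterol 25-hydroxylase and lies 75530 bases before *Ifit2*, rose with IFN-β by 3.39 ± 0.19 in shControl and by 2.50 ± 0.17 in sh*Ppargc1b* cells. Its level was 2.10 ± 0.234, 22.0 ± 2.87, 4.94 ± 1.25 and 28.3 ± 5.78 CPM in unstimulated and IFN-β-treated shControl and then sh*Ppargc1b* cells (SD, n = 3). Without IFN-β it was higher in sh*Ppargc1b* by 1.25 ± 0.20 (adjusted p = 3.0e-04). *Lipa*, the gene of lysosomal acid lipase and the nearest neighbour on that side, rose by 0.43 and 0.33, and *Fas*, a death receptor, by 0.71 and 0.54. On the other side *Slc16a12* had at most 3 counts and was not tested. *Pank1*, a pantothenate kinase, fell by 1.28 on the log2 scale in shControl and by 0.85 in sh*Ppargc1b* cells. Each of the 6 members had a larger rise than any of these 9 tested neighbours, though in shControl *Ifit1bl2* (3.50 ± 0.14) and *Ch25h* differed by less than their errors.

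**Figure D5:**
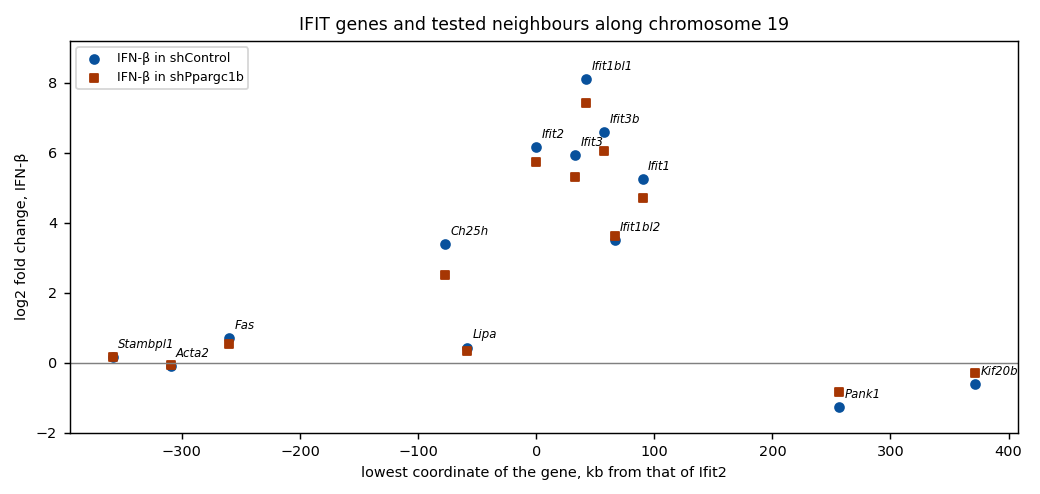
Log2 fold change with IFN-β in shControl and sh*Ppargc1b* cells for the 6 IFIT genes and the 7 tested neighbours within 1000 kb, against the distance in kb of their lowest coordinate from that of *Ifit2* on chromosome 19. The IFIT genes stood at 3.50 to 8.09 in shControl cells, *Ch25h* at 3.39 and the other neighbours between -1.28 and 0.71.

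The rest of the interferon pathway was described with lists written by hand. The receptor genes *Ifnar1* and *Ifnar2* rose with IFN-β by 0.48 and 0.49 on the log2 scale in shControl and by 0.35 and 0.42 in sh*Ppargc1b* cells. *Stat2*, a subunit of ISGF3, rose by 2.66 and 2.35 in the same cells. Without IFN-β, *Stat2* was higher in sh*Ppargc1b* by 0.21, and with IFN-β the receptor kinase gene *Tyk2* was called lower, at -0.16. The feedback genes *Usp18*, *Socs1* and *Socs3* rose in both kinds of cell, and *Usp18*, which restrains signalling at the receptor, was higher by 0.58 in unstimulated sh*Ppargc1b* cells. *Socs3* was higher in sh*Ppargc1b* both without (0.52) and with IFN-β (0.34, adjusted p = 0.0165). *Irf1*, an interferon-induced transcription factor, was lower in sh*Ppargc1b* with IFN-β, at -0.34 (adjusted p = 2.6e-05). *Irf7*, the regulator that amplifies type I interferon production, was higher by 0.59 in unstimulated sh*Ppargc1b* cells and had an interaction of -0.72 (adjusted p = 0.0244).

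Of 20 other antiviral effectors and sensors, 20 rose with IFN-β in both kinds of cell (23.7% and 21.4% of all tested genes). Without IFN-β, 7 of 20 were higher in sh*Ppargc1b* (12.4% of all tested genes) and 0 lower (11.1%), among them *Ifi44* (0.82), *Ifitm3* (0.60), which blocks viral entry, and *Isg15* (0.48), a ubiquitin-like modifier. With IFN-β, 10 of 20 were lower (12.7% of all tested genes) and 0 higher (11.5%), among them *Cmpk2* (-0.41), *Mx2* (-0.37) and *Mx1* (-0.30). The interaction was negative and passed in 5 of 20, where 0.73% of all tested genes passed in either direction (*Ifi44*, *Isg15*, *Bst2*, *Ifitm3* and *Herc6*). The median log2 fold change of the 20 genes was 0.17 without and -0.18 with IFN-β, against 0.21 and -0.19 for the IFIT members and -0.0049 and -0.011 over all tested genes.

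The 5 genes outside the family whose log2 CPM followed the mean of the IFIT members most closely over the 12 libraries, of 8766 genes ranked, were *Oas3* (Pearson r = 0.9998), *Rsad2* (0.9996), *Parp14* (0.9995), *Enpp4* (0.9994) and *Znfx1* (0.9993). These values are descriptions, since the 12 points fall into treated and untreated clusters. *Rsad2* (viperin, which makes a nucleotide that stops viral RNA synthesis) rose with IFN-β by 5.75 and 5.25, and *Enpp4* by 5.27 and 4.83, in shControl and sh*Ppargc1b* cells. *Oas3* rose by 2.91 and 2.61, *Parp14* by 2.23 and 2.02 and *Znfx1* by 2.59 and 2.29. None of the 5 was called for the knockdown without or with IFN-β. Of all tested genes, 12.4% were called higher and 11.1% lower without IFN-β, and 11.5% and 12.7% with it. The 5 genes were chosen for their likeness to the members' mean in these same libraries, so this too is a description.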

How the data were processed

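RNA-seq was measured in 12 libraries of sorted mouse bone marrow-derived DCs (4 groups of 3). The authors depleted ribosomal RNA, trimmed 100-base read pairs and mapped them to mm10 with STAR, and the deposited values are raw counts per GENCODE gene, in whole read pairs with a unique place, neither normalized nor pooled. The submitters' processing notes name Trim Galore 0.6.0 and STAR 2.7.8a. The strand setting was not given in the sources used here.

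Counts were fitted with edgeR 4.0.16 in R 4.3.3. filterByExpr (minimum count 10, minimum total 15) kept 18228 genes with 99.96% of the counts. After TMM scaling, the quasi-likelihood model gave each of the 4 groups its own mean, all 12 libraries shared the dispersion, and Benjamini-Hochberg adjustment ran over every tested gene (threshold 0.05). Every adjusted p-value of a gene comes from this test unless another is named. DESeq2 1.42.0 and limma 3.58.1 were alternatives. Intervals are 95%. Gene models and shared stretches came from GENCODE M21 (GRCm38) transcripts, and promoters from RefSeq (GRCm38.p6).

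The members and lists were chosen with earlier results of these data known. Genes named are the 6 members, the 5 nearest protein-coding neighbours on each side, the 5 genes with the pattern most like the members' mean (among tested genes with a symbol and a mean log2 CPM of at least 3), *Ppargc1b* and the listed pathway and marker genes, of which 1 is not reported here.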

Additional observations from a re-analysis of the deposited data

How the results depend on the processing

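No paired analysis was run, because the labels carry no replicate numbers and do not say which libraries belong together. Library codes in the titles run through the 4 groups in turn, but no label says that consecutive codes form a set. The replicate numbers used here follow the order of the samples. The counts of members that rose with IFN-β, 6 in both kinds of cell, were the same under every setting run. Asking also for a log2 fold change of at least 1 in size left 0 members for the knockdown without and 0 with IFN-β, and 1935, 1397, 644, 576 and 9 of all genes for IFN-β in shControl, IFN-β in sh*Ppargc1b*, the knockdown without and with IFN-β and the interaction. With all genes that had at least 1 count, 4 members were called for the knockdown without IFN-β, 3 with it and 5 for the interaction (525 of all genes). limma-voom called 1 and 3 members for the knockdown without and with IFN-β, and fits of the compared groups alone 1 and 4 (of the 4, *Ifit3b* was higher and the others lower). Summing *Ifit3* with *Ifit3b* and *Ifit1bl1* with *Ifit1bl2* called 2 members for the knockdown with IFN-β, which by construction are the 2 genes of 1 sum. For the interaction over all genes, DESeq2 called 452 and scaling by library totals 84, against 133; the cause was not tested.

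When each library was left out in turn, the knockdown without IFN-β called 0 to 3 members, and the interaction 0 to 4 members and 36 to 271 of all genes. Leaving out libraries was added for the ratios after seeing the data, and left 15 pairs for IFN-β and 6 to 11 for the knockdown. Directions turned for values that had not passed: without IFN-β, *Ifit1bl1* ranged from -0.1717 to 0.2379 over these fits, below 0 in 3, and *Ifit2* from -0.0368 to 0.3613, below 0 in 2. Sums of copies gave 0.0012 for *Ifit1bl2* without IFN-β, -0.0656 for *Ifit3b* with it and -0.65 for the interaction of *Ifit1bl2*, since a sum is led by its larger gene. Scaling by library totals moved CPM levels by -8.19% to 8.46% and the median of all genes to -0.27 (IFN-β in shControl) and -0.22 (IFN-β in sh*Ppargc1b*). Shared stretches were sought among transcripts and not in the whole genome, which was not used here. With 34 counts at the lowest, *Ifit1bl2* set the widest counting error of the members without IFN-β.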

Other observations

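The members varied together within groups. Over the 12 libraries, the deviations of log2 CPM from the group mean correlated between members with Pearson r of 0.62 to 0.95, highest for *Ifit3* with *Ifit3b* and for *Ifit1* with *Ifit2*; the members share each library and its scaling, so this is a description. Averaged over the members, shControl unstimulated replicate 2 lay 0.41 above its group mean, shControl unstimulated replicate 3 lay at -0.28, and sh*Ppargc1b* unstimulated replicate 3 lay 0.27 above. The IFN-β-treated libraries lay between -0.08 and 0.05.

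Of 7 genes for cap methylation and translation initiation, 2 rose and 2 fell with IFN-β in shControl cells, and 1 rose and 3 fell in sh*Ppargc1b* cells. Of all tested genes 23.7% and 21.4% rose and 24.6% and 21.2% fell, so nothing particular to this list is read from its counts. *Cmtr1*, the methyltransferase that marks the first nucleotide after the mRNA cap, rose by 1.25 and 1.09, and its relative *Cmtr2* fell by 0.53 and 0.37 on the log2 scale. *Cmtr1* was lower by 0.21 on the log2 scale in sh*Ppargc1b* cells with IFN-β (log2 fold change -0.21, adjusted p = 0.0325 in edgeR). *Eif4e*, which binds the cap, was higher by 0.27 in unstimulated sh*Ppargc1b* cells (adjusted p = 0.00149 in edgeR).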
